A study of Mus musculus with 60 samples.

Results

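CL6G52 and CL6G36 are sublines of P19CL6, which is itself a substrain of the mouse embryonal carcinoma line P19. Their undifferentiated cells were compared with each other on the Affymetrix arrays MOE430A and MOE430B. The comparison uses CL6G52 replicates 2 to 5 and CL6G36 replicates 1 to 5, which is 18 of the 60 arrays of the series and 9 of 30 on each array type. The arrays were chosen by their titles, with an exception. CL6G52 replicate 1 was left out of the test because its profile lay nearest another subline, CL6G45, on both array types. It is shown beside the results. Derl3, Ddit3 and Tmem98 were picked as markers of this contrast from its own values, so they are described here without a test.

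All strains were labelled as coming from a male C3H embryo and were kept in the same alpha-MEM medium with fetal calf serum, and no sample was labelled as treated. The other strains were P19, P19CL6, CL6G26 and CL6G45, with 5 replicates each. The labels do not say how the sublines were derived, whether each is a single clone, or whether replicates came from separate cultures. The p-values below therefore weigh differences only against the variation among these arrays, which may be technical. In bulk RNA, fewer cells expressing a gene and less RNA per cell cannot be told apart.

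The gene lists described first belong to the unfolded protein response and the integrated stress response. Cells use the first to match the folding capacity of the endoplasmic reticulum (ER) to the load of new proteins: the sensors IRE1, PERK and ATF6 lead to the factors XBP1, ATF4 and cleaved ATF6, which switch on chaperones and degradation machinery. The integrated stress response joins PERK with sensors of amino acid shortage and other stresses. All of them phosphorylate the initiation factor eIF2 and so favour translation of ATF4, which raises CHOP (the product of Ddit3), amino acid transporters and tRNA synthetases.

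Levels are quantile normalised log2 signals of a gene's brightest probe set. Differences are CL6G52 minus CL6G36 on the log2 scale, so a negative value is a lower level in CL6G52, with the standard error (SE) of the limma fit. A gene was called at an adjusted p below 0.05 with at least a 2-fold difference. "Passed" means the adjusted p alone. The floor is a log2 signal of 4.61 on MOE430A and 4.15 on MOE430B, below which a level was treated as dim.

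Of 13187 genes tested, 241 (1.83%) were called, 81 (0.614%) higher and 160 (1.21%) lower in CL6G52. By adjusted p alone, 2624 genes (19.9%) passed: 1160 (8.8%) higher and 1464 (11.1%) lower. The list counts below are to be read against these shares, for calls and for genes that passed. With the deposited scaling in place of quantile normalisation, 140 genes were called higher and 98 lower, so the higher share of the calls moved from 33.6% to 58.8%. By adjusted p alone, 621 of 13181 genes (4.71%) were higher and 261 (1.98%) lower with that scaling, and the list counts given for it below are to be read against these shares. The median over all genes was 0.16 in that fit and 0.00 in the quantile normalised fit. With CL6G52 replicate 1 counted as a CL6G52 sample, 169 genes were called, 158 of them among the 241. In 208 of the 241 the 4 and 5 arrays did not overlap, against 2298 genes (17.4%) without overlap among all tested. Only 98 of the 241 called genes were above the floor on all 9 arrays, beside 9195 of all 13187 genes tested. The plot of all genes shows both the wide scatter of dim genes and the bright genes that stand clear of it.

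**Figure D1:**
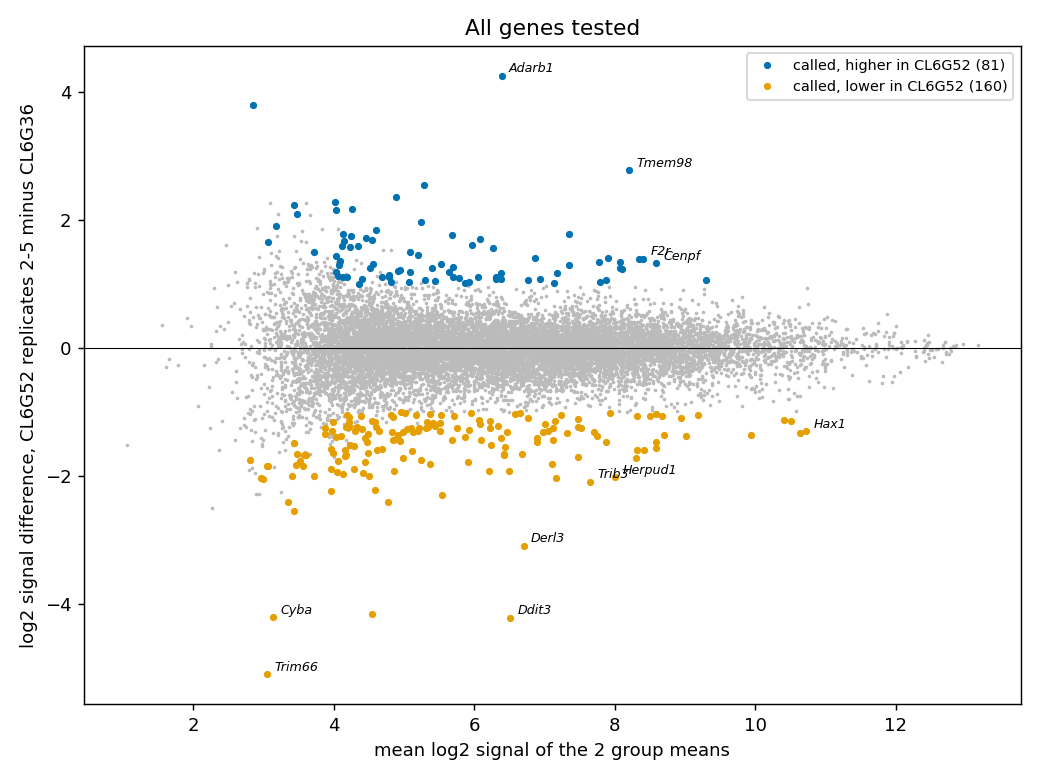
Each point is a gene: the x axis is the mean of the CL6G52 and CL6G36 mean log2 signals and the y axis is CL6G52 replicates 2 to 5 minus CL6G36. Coloured points are the 81 genes called higher and the 160 called lower; Ddit3 and Derl3 lie lowest among genes of middling signal, and Adarb1 and Tmem98 highest.

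Both sublines expressed embryonal carcinoma markers. All 9 tested markers were above the floor on all 9 arrays, with summed signals of 10924 to 12231 in CL6G52 and 12334 to 13288 in CL6G36. Markers of other cell types were examined in the same way. Of primitive endoderm markers 3 of 6 tested were above the floor on all 9 arrays, with summed signals of 290 to 356 in CL6G52 and 227 to 255 in CL6G36, which do not overlap. For trophectoderm, 2 of 6 were above the floor on all 9 arrays, with Cdx2 under it on every array, and the sums were 426 to 484 and 508 to 595. Neural (4 of 6), fibroblast (2 of 5), germ cell (2 of 3) and cardiac muscle markers (0 of 3) had sums that overlapped between the sublines. On MOE430B the 3′ to 5′ signal ratio of Actb, a measure of RNA quality and labelling, was 1.09 to 1.14 in CL6G52 and 1.28 to 1.30 in CL6G36 (exact two-sided permutation test, p = 0.00794, the smallest possible, adjusted over 6 tests 0.0476). On MOE430A the ranges were 1.08 to 1.14 and 1.09 to 1.18 (exact permutation test, p = 0.175). CL6G52 replicate 2 on MOE430B lay slightly nearer the CL6G36 mean (root mean square distance 0.772) than that of its own group (0.782). The mean of its own group left that array out and so held fewer arrays, which by itself raises the distance. So small a gap therefore cannot show that the array was atypical. Without replicate 2 on both array types 259 genes were called. The part of these marker and quality differences in the results was not tested.

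Ddit3 encodes CHOP, the transcription factor of prolonged ER stress. Its log2 signal was 8.77, 8.34, 8.45, 8.57 and 8.95 in CL6G36 and 2.62, 5.06, 4.88 and 5.07 in CL6G52 replicates 2 to 5. The groups are far apart, with replicate 2 of CL6G52 alone under the floor. The difference was -4.21 ± 0.35 (SE), with the CL6G52 mean of 4.41 under the floor, and -3.61 without that replicate. CL6G52 replicate 1 had 8.01, close to the CL6G45 mean of 8.12, while the means of CL6G26 (5.56) and P19CL6 (5.35) lay nearer to the other CL6G52 replicates. The P19CL6 arrays spread widely, at 5.85, 7.09, 4.27, 4.68 and 4.86, and P19CL6 replicate 2 lay nearer the CL6G36 mean. Derl3 encodes a derlin of the channel that draws misfolded proteins out of the ER. It read 8.19, 7.59, 8.37, 8.44 and 8.64 in CL6G36 against 4.75, 5.29, 5.09 and 5.51 in CL6G52, a difference of -3.09 ± 0.19 (SE).

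All 15 tested genes of the ATF4 and CHOP branch were lower in CL6G52 and passed, and 8 were called. Ddit3, picked as a marker from these same values, is in both counts. The median difference of the 15 was -1.02, against 0.00 over all genes. Trib3, a pseudokinase induced by CHOP that dampens ATF4, read 8.57, 8.84, 8.77, 8.44 and 8.83 in CL6G36 and 6.67, 6.73, 6.50 and 6.49 in CL6G52. Its difference was -2.09 ± 0.10 (SE, limma adjusted p = 2.96e-12), and a cross-hybridising type of probe set gave -1.18 (limma adjusted p = 4.17e-06). Cebpb, a bZIP partner of CHOP, had means of 8.18 ± 0.18 (SD, n = 5) in CL6G36 and 6.15 ± 0.37 (SD, n = 4) in CL6G52 (-2.03 ± 0.14, limma adjusted p = 4.34e-10). Stc2, a secreted glycoprotein induced by ER stress, differed by -1.58 ± 0.11 (SE, limma adjusted p = 6.35e-10), and its probe set on MOE430B gave -1.29 (limma adjusted p = 1.3e-07). Atf5, an ATF4-related factor, differed by -1.30 ± 0.10 (SE, limma adjusted p = 3.57e-09). The remaining calls in the list, named after their values were seen, were Atf3 (-1.52), Ppp1r15a (-1.29), which guides the eIF2 phosphatase, and Chac1 (-1.02), which degrades glutathione. Atf4 itself passed at -0.75, and Eif2ak3, which encodes PERK, had the smallest difference of the list, -0.47. With the deposited scaling 13 of the 15 passed, again all lower in CL6G52.

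**Figure D2:**
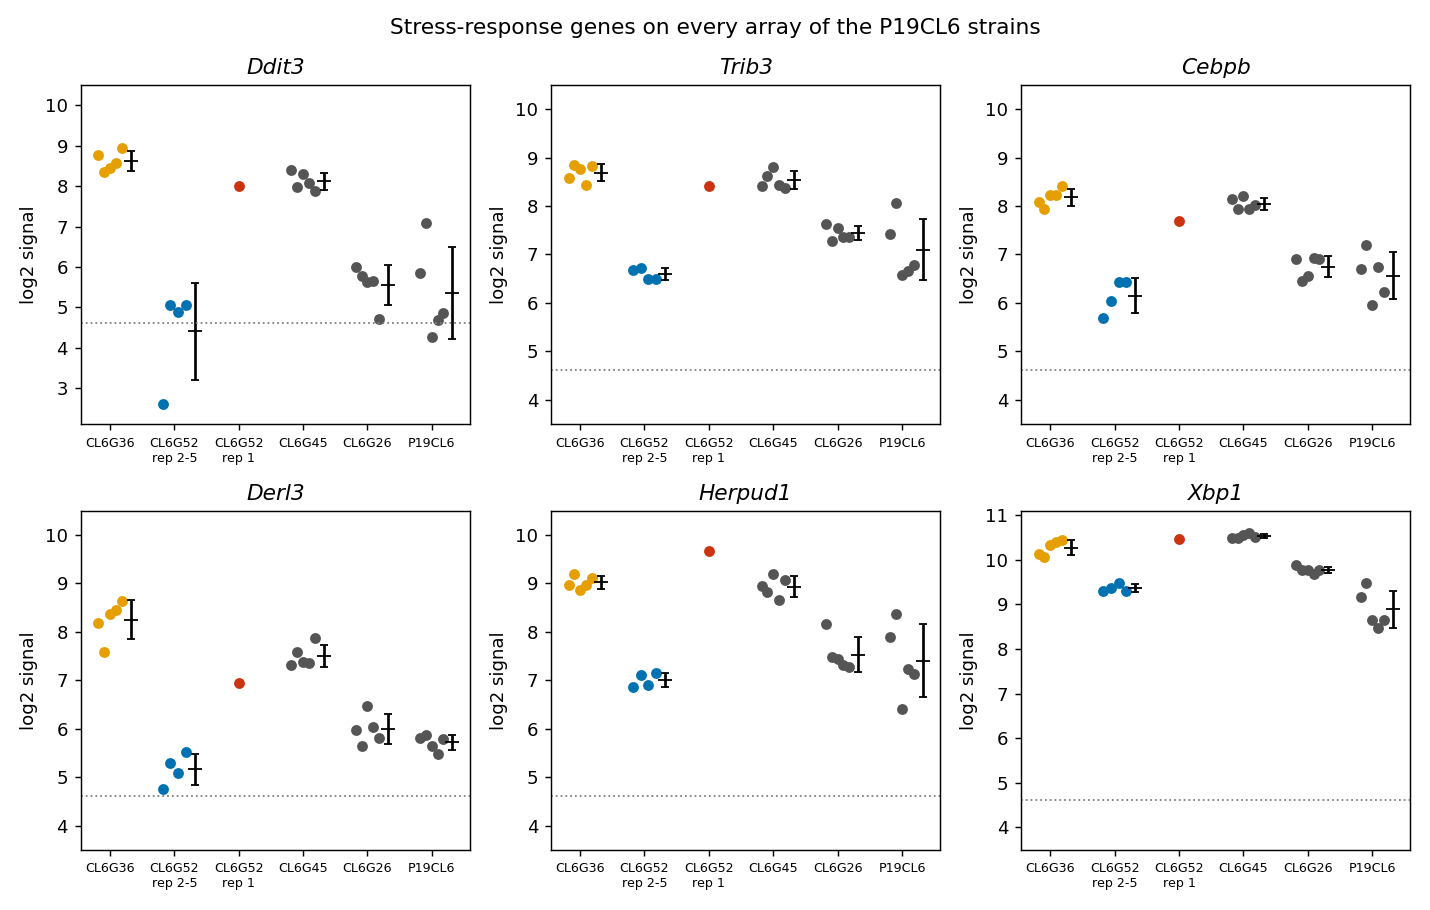
Points are log2 signals of single MOE430A arrays, with the mean and SD to the right of each group of 4 or 5; the dotted line is the floor of 4.61. In all 6 panels CL6G36, CL6G45 and CL6G52 replicate 1 lie above CL6G52 replicates 2 to 5.

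Genes of ER folding followed the same direction with smaller differences. Of 18 chaperones and disulfide isomerases 15 passed lower in CL6G52 and Pdia3 alone passed higher (0.39), with 2 called lower and a median of -0.54. With the deposited scaling 6 of the 18 passed lower, beside 1.98% of all genes, and the list median was -0.45 where that of all genes was 0.16. Creld2, a stress-induced disulfide isomerase of the ER, read 9.79, 9.55, 9.60, 9.68 and 9.86 in CL6G36 and 8.37, 8.50, 8.23 and 8.20 in CL6G52 (-1.37 ± 0.07, limma adjusted p = 8.89e-12). Ero1a, the oxidase that recharges disulfide isomerases, differed by -0.89 ± 0.08 (SE, limma adjusted p = 1.76e-08), and its paralog Ero1b was the other call (-1.05). Ero1b was above the floor on 3 of 4 CL6G52 arrays and on all 5 of CL6G36. Manf, a stress-induced ER protein, differed by -0.74 ± 0.07 (SE, limma adjusted p = 1.08e-07). Hspa5 encodes BiP, the main ER chaperone, whose level was 12.22 ± 0.14 (SD, n = 5) in CL6G36 and 11.68 ± 0.07 (SD, n = 4) in CL6G52. The difference of -0.53 ± 0.06 passed (limma adjusted p = 3.13e-07), but not with the deposited scaling (-0.45, limma adjusted p = 0.0518). Other Hspa5 probe sets gave -0.64, which passed (limma adjusted p = 0.000186), and -0.15 on MOE430B, which did not (limma adjusted p = 0.627).

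In ER-associated degradation and translocation, 13 of 17 tested genes passed lower in CL6G52 and none higher, with 2 called and a median of -0.56. Derl3, picked as a marker from these same values, is among the passed and the called genes. With the deposited scaling 5 passed lower. Herpud1, a scaffold of the degradation complex, read 8.97, 9.20, 8.86, 8.96 and 9.11 in CL6G36 and 6.86, 7.10, 6.90 and 7.15 in CL6G52 (-2.02 ± 0.14, limma adjusted p = 5.55e-10). CL6G52 replicate 1 had 9.66, above every CL6G36 array. Xbp1, the target of IRE1, differed by -0.90 ± 0.07 (SE, limma adjusted p = 3e-09), and 2 other Xbp1 probe sets gave -0.99 and -0.94 while another gave -0.01 (limma adjusted p = 0.975). Ern1, which encodes IRE1 itself, differed by 0.18 and did not pass. Selenos, a selenoprotein of the same complex, differed by -0.54 ± 0.06 (SE, limma adjusted p = 4.21e-07), and this difference did not pass with the deposited scaling (-0.40, limma adjusted p = 0.114).

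The promoters of several of these genes hold the ER stress element, a CCAAT box followed after 9 bases by CCACG, which ATF6 and XBP1 are known to bind with NF-Y. Promoter windows of 300 bases (250 before and 50 after the start, RefSeq, GRCm38.p6) were searched on both strands. The element was found in 8 of 16 ER folding genes with a promoter in the table (50%), in 2 of 14 degradation genes (14.3%), in 18 of 10625 tested genes (0.169%) and in 37 of 27025 genes of the whole table (0.137%). Of the 8 folding genes that hold it, Canx (-0.05) and Hsp90b1 (-0.20) did not pass. The stretches below, read 5′ to 3′ on the gene's strand, show the element in capitals, on either strand, for the degradation genes Derl3 and Syvn1 and for 3 of the folding genes.
Derl3: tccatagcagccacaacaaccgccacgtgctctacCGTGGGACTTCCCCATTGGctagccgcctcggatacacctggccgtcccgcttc
Creld2: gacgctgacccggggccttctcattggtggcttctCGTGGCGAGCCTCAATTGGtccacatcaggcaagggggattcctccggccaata
Ero1b: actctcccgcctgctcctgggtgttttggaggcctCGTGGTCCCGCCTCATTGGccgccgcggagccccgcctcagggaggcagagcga
Hspa5: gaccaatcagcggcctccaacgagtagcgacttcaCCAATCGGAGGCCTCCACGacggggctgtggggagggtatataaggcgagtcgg
Syvn1: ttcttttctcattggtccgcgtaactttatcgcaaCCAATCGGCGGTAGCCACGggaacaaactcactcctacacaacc
They lie at chr10:75893207-75893295 (Derl3), chr15:88819485-88819573 (Creld2), chr13:12565647-12565735 (Ero1b), chr2:34771990-34772078 (Hspa5) and chr19:6046497-6046575 (Syvn1), all on the plus strand. A match is a description of the letters only, since no binding was measured. The lists were built on ER and stress functions. Their shares of matches, here and for the site described below, therefore do not bear on the difference between the sublines. The shorter unfolded protein response element TGACGTGG was found in 0 of 16 folding genes and 1 of 14 degradation genes, Sec24d, against 1.1% of tested genes.

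Genes that supply amino acids made up a further group. Of 22 tested genes of serine, one-carbon and amino acid supply, 18 passed lower in CL6G52 and none higher, 4 were called, and the median was -0.64; with the deposited scaling 12 passed. Aldh1l2, the mitochondrial formyltetrahydrofolate dehydrogenase, read 6.83, 6.48, 7.01, 6.93 and 6.76 in CL6G36 and 5.03, 4.92, 4.95 and 5.17 in CL6G52 (-1.78 ± 0.13, limma adjusted p = 3.6e-09). Shmt2, the mitochondrial serine hydroxymethyltransferase, differed by -1.09 ± 0.07 (SE, limma adjusted p = 4.13e-10); 3 further probe sets, of the kind that can cross-hybridise, gave -0.87, which passed (limma adjusted p = 3.36e-09), and -1.32 and 0.61, which did not (limma adjusted p = 0.266 and 0.331), and with the mean over its probe sets Shmt2 no longer passed (-0.67, limma adjusted p = 0.0528). Psph, the last enzyme of serine synthesis, differed by -0.85 ± 0.07 (SE, limma adjusted p = 1.5e-08). Slc1a4, a neutral amino acid transporter, differed by -0.998 ± 0.09 (SE, limma adjusted p = 1.76e-08). The remaining calls, named after their values were seen, were the cystine transporter Slc7a11 (-1.25) and the glycine transporter Slc6a9 (-1.24). Slc7a11 was above the floor on 1 of 4 CL6G52 arrays and on all 5 of CL6G36, which limits its fold.

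Of 19 aminoacyl-tRNA synthetases, which charge tRNAs for translation, 12 passed lower and none higher, with a median of -0.43; with the deposited scaling 4 of the 19 passed lower, beside 1.98% of all genes. Sars, the cytosolic seryl-tRNA synthetase, was the single call. It read 11.12, 11.05, 11.06, 10.99 and 11.15 in CL6G36 and 9.94, 9.88, 9.92 and 10.00 in CL6G52 (-1.14 ± 0.05, limma adjusted p = 1.52e-12). Aars, for alanine, differed by -0.82 ± 0.08 (SE, limma adjusted p = 5.66e-08), and Lars, for leucine, by -0.67 ± 0.06 (SE, limma adjusted p = 3.22e-08). Nars, for asparagine, differed by -0.45 ± 0.05 (SE, limma adjusted p = 5.32e-07) and did not pass with the deposited scaling (limma adjusted p = 0.153).

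The composite site TGATGNAAN, at which ATF4 and CHOP or C/EBP proteins are known to pair, was searched for in the same promoters. It was found in 4 of 15 genes of the ATF4 and CHOP list (26.7%), 3 of 17 of the amino acid supply list (17.6%) and 5 of 12 of the synthetases (41.7%), against 2.82% of tested genes and 4.5% of the table. It was in 0 of 16 ER folding genes and in 1 of 14 degradation genes (7.14%), Herpud1. Of the synthetases that hold it, Iars did not pass (-0.19, limma adjusted p = 0.341). The stretches below show it in capitals for 5 genes, with both sites of Slc7a11.
Herpud1: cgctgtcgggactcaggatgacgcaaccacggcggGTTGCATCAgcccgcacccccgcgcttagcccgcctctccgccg
Atf3: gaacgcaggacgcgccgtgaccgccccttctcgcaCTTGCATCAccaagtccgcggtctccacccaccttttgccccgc
Chac1: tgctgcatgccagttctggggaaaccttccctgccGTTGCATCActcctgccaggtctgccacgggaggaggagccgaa
Slc7a11: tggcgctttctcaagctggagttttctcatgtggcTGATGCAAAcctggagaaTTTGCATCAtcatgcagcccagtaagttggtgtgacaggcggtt
Aars: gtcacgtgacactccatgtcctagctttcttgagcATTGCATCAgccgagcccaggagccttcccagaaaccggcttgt
They lie at chr8:94386281-94386359 (Herpud1), chr2:119351013-119351091 (Chac1) and chr8:111033694-111033772 (Aars) on the plus strand, and at chr1:191183401-191183479 (Atf3) and chr3:50443618-50443714 (Slc7a11) on the minus strand.

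Cytosolic and mitochondrial heat shock genes, a separate protein folding system, did not share that direction. Of 12 tested, 5 passed higher in CL6G52 and 2 lower, beside 8.8% and 11.1% of all genes, with a median of 0.26. With the deposited scaling 3 passed higher. The lower members, named after their values were seen, were Bag3 (-0.56) and Hspa9 (-0.34). Hsph1, a nucleotide exchange factor of HSP70, read 9.99, 9.73, 9.72 and 9.88 in CL6G52 and 8.96, 8.88, 8.66, 8.76 and 8.60 in CL6G36 (1.06 ± 0.10, limma adjusted p = 5.63e-08). Dnaja1, an HSP40 co-chaperone, differed by 0.64 ± 0.07 (SE, limma adjusted p = 3.32e-07), Hspb1, a small heat shock protein, by 0.47 ± 0.07 (SE, limma adjusted p = 4.7e-05), and Hspd1, the mitochondrial chaperonin, by 0.34 ± 0.04 (SE, limma adjusted p = 9.21e-07). Hspd1 did not pass with the deposited scaling (limma adjusted p = 0.0576).

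**Figure D3:**
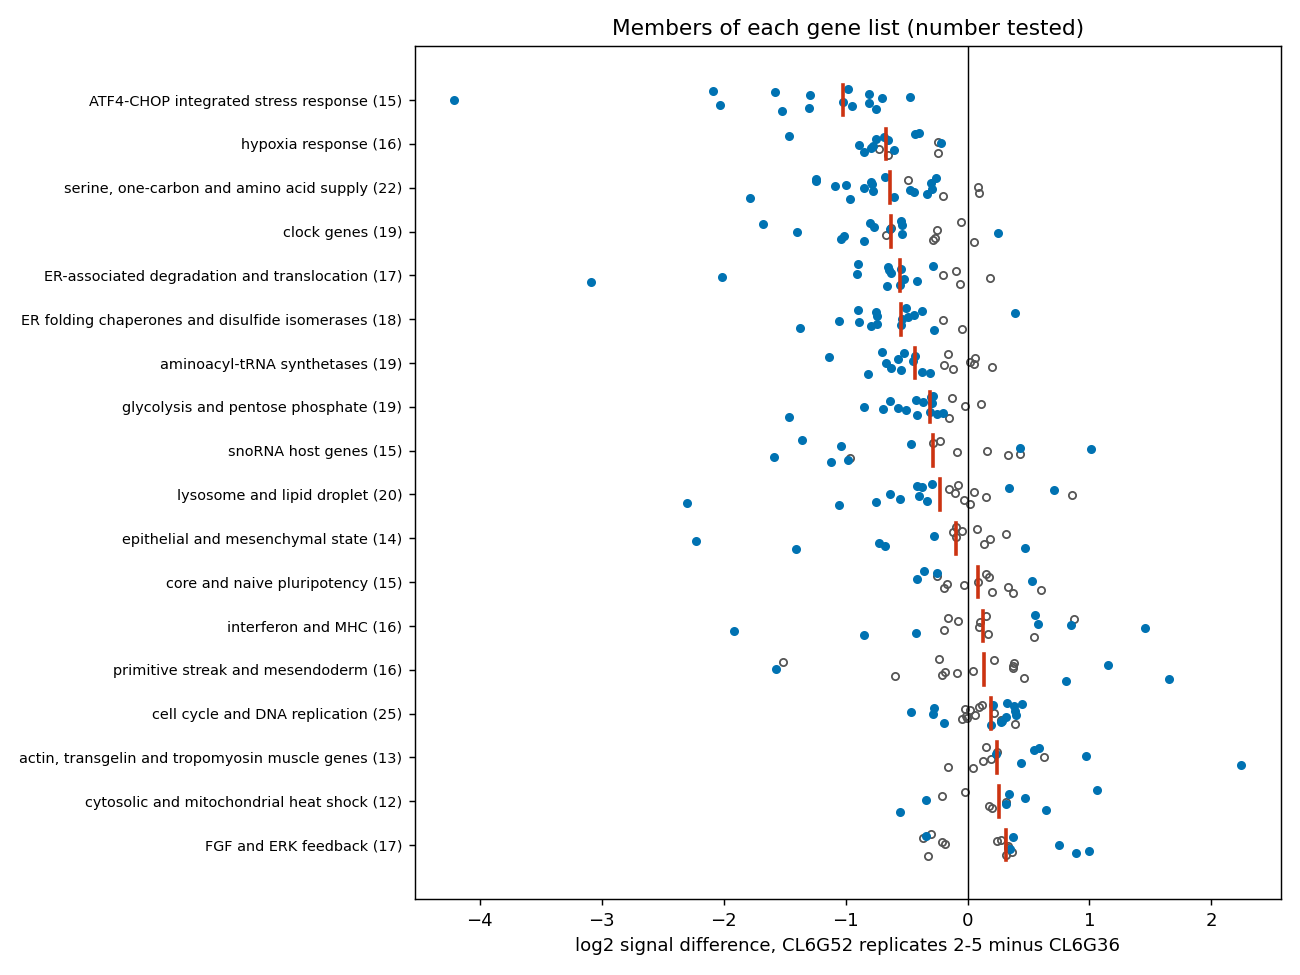
Each row is a gene list with the number of members tested; points are members' log2 differences, CL6G52 replicates 2 to 5 minus CL6G36, filled where the limma adjusted p was below 0.05, and the bar is the median. Among the lists drawn, the ATF4 and CHOP list has a median of -1.02, and the heat shock and FGF lists have medians of 0.26 and 0.31.

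Glycolytic and hypoxia-responsive genes were also lower in CL6G52. Of 19 glycolysis and pentose phosphate genes 15 passed lower and none higher, with a median of -0.31; with the deposited scaling 3 of the 19 passed lower, beside 1.98% of all genes. Aldoc, the brain-type aldolase, read 8.67, 8.46, 8.81, 8.56 and 8.54 in CL6G36 and 7.11, 7.21, 7.18 and 7.09 in CL6G52 (-1.46 ± 0.09, limma adjusted p = 4.01e-11) and was the single call. The phosphofructokinase genes Pfkl (-0.70 ± 0.08, limma adjusted p = 6.08e-07) and Pfkm (-0.57 ± 0.07, limma adjusted p = 1.12e-06) also passed lower; Pfkm did not pass with the deposited scaling (-0.45, limma adjusted p = 0.071). For the glucose transporter gene Slc2a3 the size depended on the probe set. Its brightest gave -0.43 ± 0.06 (SE, limma adjusted p = 1.83e-05) and did not pass with the deposited scaling (limma adjusted p = 0.157). Its 3 other probe sets gave -1.50, -1.43 and -0.95 and all passed (limma adjusted p = 3.05e-08, 1.25e-05 and 4.58e-10), and the mean of its probe sets was -1.08 (limma adjusted p = 1.93e-08).

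Of 16 hypoxia-responsive genes 12 passed lower and none higher, with a median of -0.67; with the deposited scaling 7 passed. P4ha2, a collagen prolyl hydroxylase subunit, was the call (-1.47 ± 0.14, limma adjusted p = 3.89e-08), at 7.95, 7.71, 7.56, 7.41 and 7.49 in CL6G36 and 6.60, 6.33, 5.76 and 5.94 in CL6G52. Bnip3, a mitophagy receptor, differed by -0.60 ± 0.05 (SE, limma adjusted p = 1.74e-08), and Kdm3a, a histone demethylase, by -0.65 ± 0.07 (SE, limma adjusted p = 6.97e-07). Neither passed with the deposited scaling (limma adjusted p = 0.0513 and 0.0576). Ero1a, given above, is in this list too. Oxygen was not recorded per sample.

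Lysosomal and lipid droplet genes were mixed. Of 20 tested, 10 passed lower and 2 higher, with a median of -0.22; with the deposited scaling 4 passed lower. Ctsc, a lysosomal protease gene named after its values were seen, and Ctsa were called. Ctsc differed by -2.30 ± 0.40 (SE, limma adjusted p = 0.00015) and was above the floor on 1 of 4 CL6G52 arrays and on all 5 of CL6G36. The lysosomal protease genes Ctsa and Ctsd differed by -1.05 ± 0.10 (SE, limma adjusted p = 4.63e-08) and -0.75 ± 0.09 (SE, limma adjusted p = 1.01e-06), although a Ctsa probe set on MOE430B gave -0.03 (limma adjusted p = 0.963). Lamp1, a lysosomal membrane protein, differed by -0.64 ± 0.06 (SE, limma adjusted p = 2.08e-08). Fabp3, a fatty acid carrier, differed by -0.56 ± 0.09 (SE, limma adjusted p = 4.36e-05; 0.02 in a MOE430B probe set), not passing with the deposited scaling (limma adjusted p = 0.0913). The higher members, named after their values were seen, were Laptm4b (0.71) and Lpl (0.34).

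Of 15 tested pluripotency factors 1 passed higher and 3 lower, beside 19.9% of all genes passing in either direction, and the median was 0.09. Pou5f1, which encodes OCT4, read 11.65, 11.45, 11.57, 11.66 and 11.60 in CL6G36 and 11.18, 11.24, 11.13 and 11.15 in CL6G52 (-0.41 ± 0.05, limma adjusted p = 1.72e-06). With the deposited scaling it did not pass (-0.27, limma adjusted p = 0.229). Nanog read 8.08, 8.28, 8.19 and 8.22 in CL6G52 and 7.77, 8.08, 7.60, 7.73 and 7.14 in CL6G36, so the groups touch (0.53 ± 0.12, limma adjusted p = 0.00238; deposited scaling 0.62, limma adjusted p = 0.0621). Sox2 differed by -0.25 ± 0.12 (SE, limma adjusted p = 0.143). Utf1, a chromatin protein of pluripotent cells, differed by -0.36 ± 0.09 (SE, limma adjusted p = 0.00326). Utf1 probe sets on MOE430B gave 0.12, not passing (limma adjusted p = 0.785), and -2.18, passing (limma adjusted p = 0.0337). The Nodal co-receptor Tdgf1 differed by -0.25 ± 0.07 (SE, limma adjusted p = 0.011). Neither Utf1 nor Tdgf1 passed with the deposited scaling or with replicate 1 included. Fst, the activin antagonist that is high in P19CL6 (9.99) and CL6G26 (9.21), was at 7.07 in CL6G52 and 6.99 in CL6G36 (0.07 ± 0.13, limma adjusted p = 0.732).

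Most primitive streak genes were dim: 3 of 16 tested were above the floor on all 9 arrays. Mixl1, a homeobox factor of mesendoderm, was above the floor on the 4 CL6G52 arrays (5.37, 5.57, 5.56, 4.94) and under it on the 5 CL6G36 arrays, which gives at least 1.68-fold higher in CL6G52 (limma adjusted p = 2.67e-05). P19CL6 (6.83) and CL6G26 (6.45) were higher still. Gsc, a homeobox factor of the organizer, was lower in CL6G52, where 2 of 4 arrays were above the floor against 5 of 5 (3.91 ± 1.31, SD, n = 4, against 5.48 ± 0.35, SD, n = 5, limma adjusted p = 0.00256). Without CL6G52 replicate 5 the Gsc difference moved from -1.57 to -0.93, under 2-fold. Apela, a peptide ligand of the apelin receptor, differed by 0.80 ± 0.15 (SE, limma adjusted p = 0.00186), but with replicate 1 included it did not pass (0.50, limma adjusted p = 0.313). Its receptor gene Aplnr was under the floor on all 9 arrays, and its call (limma adjusted p = 0.0493) was lost in 13 of 21 alternatives, among them the omission of any CL6G52 replicate or of CL6G36 replicate 2, 4 or 5 (limma adjusted p = 0.069 to 0.123).

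Of 17 genes of FGF ligands and ERK feedback 5 passed higher, beside 8.8% of all genes, with a median of 0.31 and no call. Spry1 alone passed lower (-0.34 ± 0.10, limma adjusted p = 0.0106). With the deposited scaling 3 of the list passed higher. Etv4, an ETS factor induced by FGF, read 6.20, 6.70, 6.46 and 6.24 in CL6G52 and 5.68, 5.60, 4.81, 5.51 and 5.39 in CL6G36 (0.999 ± 0.15, limma adjusted p = 3.98e-05). Fgf5, the ligand of primed epiblast, differed by 0.75 ± 0.17 (SE, limma adjusted p = 0.00238). Etv5 differed by 0.35 ± 0.07 (SE, limma adjusted p = 0.0012) and did not pass with the deposited scaling (limma adjusted p = 0.138), nor did Spry1 (limma adjusted p = 0.455), which also did not pass without CL6G52 replicate 5 (-0.29, limma adjusted p = 0.0509).

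Several epithelial genes were lower in CL6G52. Of 14 epithelial and mesenchymal genes 5 passed lower and Cdh2, which encodes N-cadherin, alone passed higher (0.48); the list median was -0.10. With the deposited scaling 3 passed lower and the median was 0.05, when that of all genes was 0.16. Cdh1, which encodes E-cadherin, read 6.70, 7.17, 7.28, 7.28 and 7.03 in CL6G36 and 4.74, 5.83, 6.06 and 6.12 in CL6G52 (-1.41 ± 0.20, limma adjusted p = 1.27e-05). Esrp1, an epithelial splicing factor, was under the floor on all CL6G52 arrays and above it on 4 of 5 CL6G36 arrays, at least 1.39-fold higher in CL6G36 (limma adjusted p = 1.88e-06). Epcam, an epithelial adhesion protein, differed by -0.73 ± 0.08 (SE, limma adjusted p = 3.83e-07; 0.46, not passing, in a MOE430B probe set) and Cldn6, a tight junction claudin, by -0.67 ± 0.13 (SE, limma adjusted p = 0.000335). Cldn6 did not pass with the deposited scaling (limma adjusted p = 0.0897). Vim (-0.05) and Krt18 (-0.10) did not pass.

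Of 13 actin-cytoskeleton muscle genes 6 passed higher in CL6G52 and none lower, beside 8.8% and 11.1% of all genes, with a median of 0.24. With the deposited scaling 5 passed higher. The tropomyosin genes Tpm1 and Tpm2 differed by 0.54 ± 0.07 (SE, limma adjusted p = 7.07e-06) and 0.59 ± 0.13 (SE, limma adjusted p = 0.00192), and the calponin gene Cnn2 by 0.44 ± 0.07 (SE, limma adjusted p = 9.14e-05). Other Tpm1 probe sets gave 0.28, which passed (limma adjusted p = 0.00256), and -0.05, which did not (limma adjusted p = 0.859). Cnn1, the smooth muscle calponin, was called (limma adjusted p = 0.000921), but it was under the floor on all CL6G36 arrays and above it on 3 of 4 CL6G52 arrays. Cell cycle genes showed small differences: of 25 tested 10 passed higher and 4 lower, beside 8.8% and 11.1% of all genes. None of the 25 was called, and the median was 0.19. Cdk1, the mitotic kinase, differed by 0.40 ± 0.06 (SE, limma adjusted p = 3.6e-05), Rrm2, of ribonucleotide reductase, by 0.44 ± 0.09 (SE, limma adjusted p = 0.000483; 0.66 and 0.94 in other probe sets), Mad2l1, of the spindle checkpoint, by 0.39 ± 0.09 (SE, limma adjusted p = 0.00174) and Top2a, a topoisomerase, by 0.32 ± 0.07 (SE, limma adjusted p = 0.00131). With the deposited scaling 3 of the 25 passed higher and 0 lower.

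Interferon and MHC genes went both ways, with 4 of 16 passing higher and 3 lower, beside 8.8% and 11.1% of all genes. The list median was 0.13, with 1 gene called higher and 1 lower. With the deposited scaling 4 passed higher and 2 lower. Ifitm1, an interferon-induced membrane protein, was above the floor on all 4 CL6G52 arrays and 3 of 5 CL6G36 arrays (1.46 ± 0.21, limma adjusted p = 2.1e-05). Tapbp, the peptide-loading protein tapasin, differed by 0.55 ± 0.11 (SE, limma adjusted p = 0.000785; 0.12, not passing, in another probe set), and Bst2, an antiviral tether, by -0.85 ± 0.12 (SE, limma adjusted p = 1.94e-05). H2-DMa, an MHC class II peptide exchanger, read 7.18, 7.29, 7.44, 6.91 and 7.01 in CL6G36 and 5.55, 5.42, 4.97 and 5.06 in CL6G52 (-1.92 ± 0.19, limma adjusted p = 7.99e-08). The means of CL6G45, CL6G26 and P19CL6 lay between 5.12 and 5.25, so CL6G36 was the high strain of these. A cross-hybridising type of probe set for H2-DMa on MOE430B gave 1.17 and did not pass (limma adjusted p = 0.322).

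Several large differences belonged to no list. Tmem98, a membrane protein, read 9.65, 9.78, 9.41 and 9.56 in CL6G52 and 6.59, 7.30, 6.69, 6.85 and 6.66 in CL6G36, a difference of 2.78 ± 0.13 (SE). CL6G52 replicate 1 (9.32), CL6G45 (9.25), CL6G26 (9.20) and P19CL6 (9.19) all lay near CL6G52, so the low level was in CL6G36. Adarb1, an RNA-editing adenosine deaminase, showed the reverse arrangement. Its level was 8.89, 8.29, 8.58 and 8.33 in CL6G52 replicates 2 to 5 and under the floor on all 5 CL6G36 arrays, at least 15-fold higher in CL6G52 (limma adjusted p = 1.52e-12). Replicate 1 had 4.75, and CL6G45 (4.41), CL6G26 (4.59) and P19CL6 (4.45) were near the floor.

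Sorcs2, a sorting receptor of the VPS10 family, read 7.53, 7.47, 7.65, 7.21 and 7.39 in CL6G36 and 5.46, 5.31, 5.95 and 5.43 in CL6G52 (-1.91 ± 0.14, limma adjusted p = 1.66e-09), with the other P19CL6 strains between 5.51 and 5.80. F2r, which encodes the thrombin receptor PAR1, read 9.08, 9.10, 9.15 and 9.10 in CL6G52 and 7.66, 7.78, 7.70, 7.79 and 7.59 in CL6G36 (1.40 ± 0.07, limma adjusted p = 4.76e-12). Tmsb4x, the actin-binding thymosin beta-4, differed by 1.39 ± 0.08 (SE, limma adjusted p = 1.55e-11). For F2r and Tmsb4x replicate 1 was at 7.73 and 7.41, beside CL6G36. Frmd4a, a scaffold of cell junctions, differed by 1.71 ± 0.19 (SE, limma adjusted p = 2.04e-06), Tmem59l by 1.57 ± 0.13 (SE, limma adjusted p = 8.91e-09), and Pdf, the mitochondrial peptide deformylase, by 1.62 ± 0.15 (SE, limma adjusted p = 6.34e-08). Hip1r, an actin-binding protein of clathrin-coated pits, differed by -1.80 ± 0.18 (SE, limma adjusted p = 1.44e-07).

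Probe sets disagreed for 2 of the largest increases. Gpaa1, a subunit of the GPI transamidase, differed by 1.79 ± 0.24 (SE, limma adjusted p = 9.23e-06) in its brightest probe set, and by 0.00 and 0.44 in 2 others, which did not pass (limma adjusted p = 0.978 and 0.41). Lsm6, of the spliceosomal LSM ring, differed by 1.41 ± 0.11 (SE, limma adjusted p = 4.38e-09) in its brightest; 2 further probe sets gave 0.99 and 0.59 and passed (limma adjusted p = 3.84e-05 and 0.0286), and another gave -0.15 (limma adjusted p = 0.93). The mean over probe sets was 0.74 for Gpaa1 and 0.71 for Lsm6, both of which passed (limma adjusted p = 0.00047 and 0.00348). Of 31 genes called on MOE430A that were also tested on MOE430B, 22 had the same sign there, 7 passed with the same sign and 0 with the opposite sign; over all 2116 genes on both types 60.3% had the same sign.

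**Figure D4:**
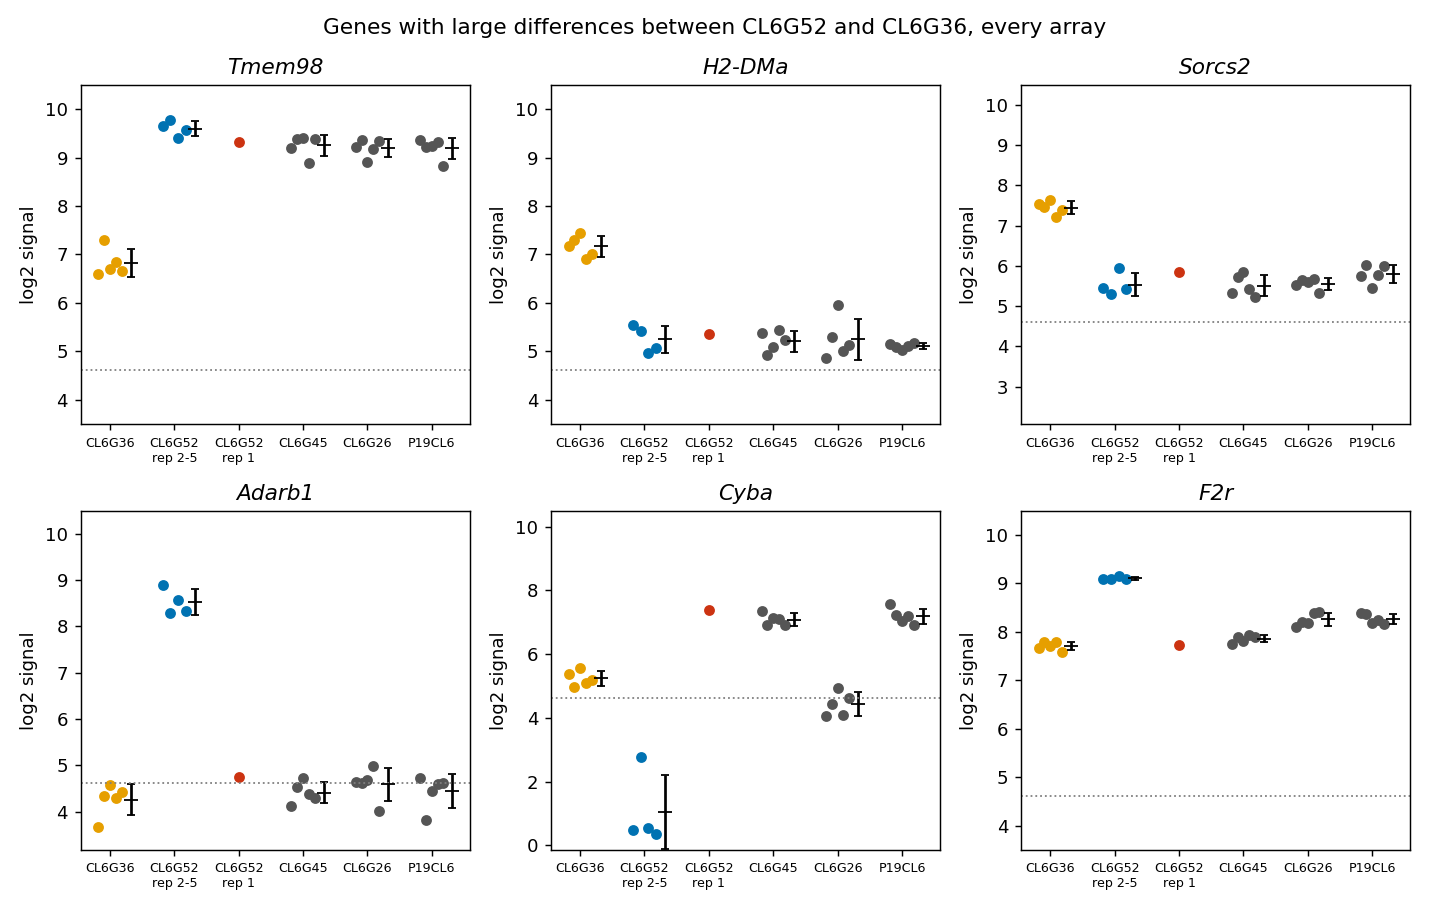
Points are log2 signals of single MOE430A arrays with the mean and SD of each group of 4 or 5 beside them; the dotted line is the floor of 4.61. CL6G36 stands apart for Tmem98, H2-DMa and Sorcs2, and CL6G52 replicates 2 to 5 for Adarb1 and F2r; for Cyba they are the lowest.

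A few further genes were above the floor on every array of a single group. Among the 241 called genes, 12 were above it on the 4 CL6G52 arrays and under it on the 5 CL6G36 arrays. Another 19 called genes were the other way round. Genes with such a pattern that were not called are not in these counts. Besides Adarb1 and Mixl1, Cbr3, a carbonyl reductase, was at least 1.56-fold (limma adjusted p = 8.37e-05) and Cd302, a lectin receptor, at least 1.44-fold higher in CL6G52 (limma adjusted p = 0.000339). Trim66, a chromatin reader, read 5.73, 5.59, 5.44, 5.75 and 5.49 in CL6G36 and 0.00, 1.23, 0.79 and 0.00 in CL6G52, at least 2.74-fold higher in CL6G36 (limma adjusted p = 2.93e-08). It was also high in CL6G45 (5.48) and replicate 1 (4.98) and low in CL6G26 (1.71) and P19CL6 (1.34). Cyba, the p22phox subunit of NADPH oxidases, was at least 1.55-fold higher in CL6G36 (limma adjusted p = 8.8e-09), where it was at 5.24, below P19CL6 (7.19), CL6G45 (7.08) and replicate 1 (7.38). CL6G26 was lower than CL6G36 for Cyba, at 4.06, 4.44, 4.95, 4.08 and 4.61. Hid1 and Gbe1, the glycogen branching enzyme, were at least 2.12-fold and 2.09-fold higher in CL6G36 (limma adjusted p = 2.17e-05 and 2.71e-05). A Hid1 probe set on MOE430B gave -0.64 and did not pass (limma adjusted p = 0.356).

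The remaining strains placed the called genes as follows, as a description. The P19CL6 mean can hide a split among its replicates, as for Herpud1 (7.89, 8.36, 6.40, 7.23 and 7.13). Of the 81 genes higher in CL6G52, the P19CL6 mean lay nearer CL6G52 for 64 and nearer CL6G36 for 17. Of the 160 lower genes it lay nearer CL6G52 for 90 and nearer CL6G36 for 70. CL6G45 lay nearer CL6G36 for 127 of the 160 lower and 52 of the 81 higher genes. CL6G52 replicate 1 lay nearer CL6G36 for 155 of the 241 genes, 117 of the lower and 38 of the higher ones. Over the 15079 tested MOE430A probe sets its root mean square distance was 0.42 to the CL6G45 mean, 0.46 to CL6G36 and 0.53 to the mean of the other CL6G52 replicates. On MOE430B these distances lay closer together, at 0.6779, 0.721 and 0.7235.

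Some differences lay side by side in the genome. Genes tested here were set in their RefSeq order (GRCm38.p6), and medians over 9 neighbouring genes passed 0.5 in either direction in 18 of 9016 windows (0.2%), which formed 3 stretches; the rule was chosen after the values were seen. The stretches were picked by these same differences, so many members in the same direction follow from the rule. Over all genes 11.1% passed lower and 8.8% higher, and 1.21% were called lower and 0.614% higher. In the stretch of 17 tested genes from Atp8b2 to Lor, 16 were lower in CL6G52, 15 passed lower and 3 were called. The median there was -0.56. The called genes were Rps27 (-1.65), of the small ribosomal subunit, Hax1 (-1.30), a mitochondrial survival factor, and Ints3 (-1.01), of the integrator complex. The median of this stretch was 0.54 for CL6G36 minus P19CL6 and -0.05 for CL6G52 minus P19CL6, which share the P19CL6 arrays, and 0.05 and -0.03 for CL6G45 and CL6G26. The level above the others was in CL6G36.

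In the stretch of 14 genes from Eprs to Dtl, 9 were higher in CL6G52, 6 passed higher and 4 were called. The stretch median was 0.30. The called genes were Cenpf (1.33), a kinetochore protein, Rrp15 (1.24), of ribosome biogenesis, Vash2 (1.12), a tubulin carboxypeptidase, and Angel2 (1.08). For these 4 genes the CL6G36 mean lay below those of P19CL6, CL6G45 and CL6G26. In the same stretch 3 genes passed lower, among them Atf3. In the third, 7 of 11 genes from Plaat3 to Polr2g were lower and the stretch median was -0.11. There 5 passed lower, including the amino acid transporter subunit gene Slc3a2 and Snhg1, Polr2g passed higher (0.30, limma adjusted p = 0.00522), and none was called. DNA content was not measured.

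**Figure D5:**
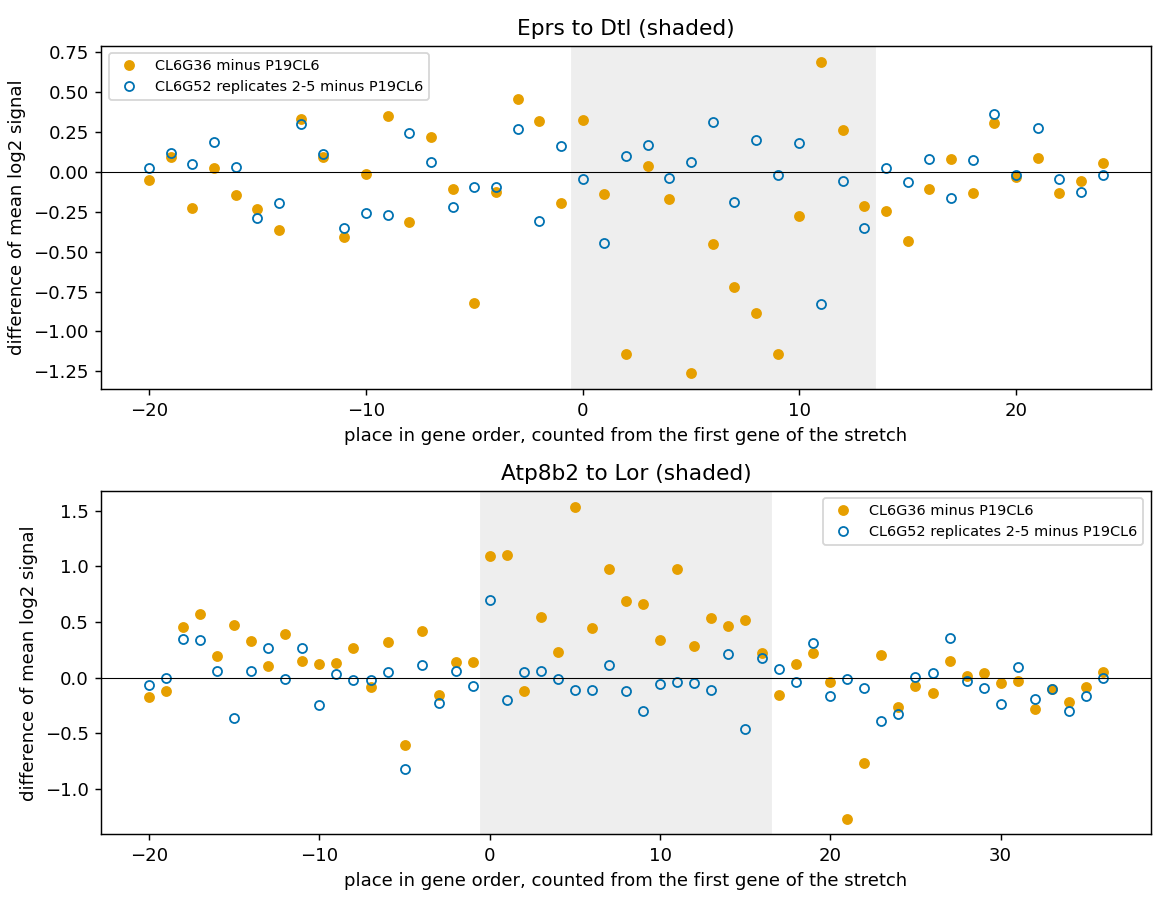
Points are genes in chromosomal order, counted from the first gene of the shaded stretch, and the y axis is the mean log2 signal of CL6G36 (filled) or CL6G52 replicates 2 to 5 (open) minus P19CL6. From Atp8b2 to Lor the CL6G36 points lie mostly above 0, with a median of 0.54; from Eprs to Dtl several CL6G36 points lie near or below -1.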

How the data were processed

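Total RNA of each sample was labelled in a two-cycle reaction and read on MOE430A and MOE430B arrays, per the labels' protocols. The deposited values are GCOS signals, a linear intensity per probe set, per the submitters' processing notes. The GCOS version and the authors' scaling target are not stated in the sources used here. All arrays of an array type (30) were quantile normalised together, values below 1 were raised to 1, and the log2 signal was used. The floor was the 40th percentile on MOE430A and the 60th on MOE430B; a probe set was tested if above it on at least 5 of 30 arrays (15079 and 12157 probe sets). Probe sets were named by the platform annotation, those with several genes left out, and some list genes were not analysed here. A gene was read from its brightest tested probe set, with cross-hybridising x_at types used last and MOE430A before MOE430B.

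limma 3.58.1 in R 4.3.3 (lmFit, eBayes with trend) was fitted on the 20 subline arrays of each type, with CL6G52 replicate 1 as a group of its own (15 residual degrees of freedom), and p-values were adjusted by Benjamini-Hochberg over the probe sets of an array type. P19 and P19CL6 were kept out of the fit because their replicates were known from earlier results to split. The number of arrays limits the precision. The fit was tested on simulated data.

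The comparison, the members of the gene lists and the rules were chosen with earlier results of these data known; the lists of clock genes and of snoRNA host genes and the rule for neighbouring genes were chosen after the values were seen. Named genes are the 3 markers; the 8 largest increases and decreases without overlap and above the floor on all 9 arrays; the 4 smallest adjusted p in each direction among genes above the floor in a single group; up to 4 members of each list described, by adjusted p; and Pou5f1, Nanog, Sox2 and Fst. Further lists were examined and are not described above. Of sterol and fatty acid synthesis genes 11 of 22 passed lower and 2 higher, beside 11.1% and 8.8% of all genes. Of oxidative phosphorylation genes 9 of 21 passed lower and 4 higher, and of p53 genes 2 of 14 lower and 6 higher. Of Wnt genes 0 of 17 passed and of cardiac transcription factors 0 of 12. The others were primed epiblast, Nodal, BMP, imprinted, DNA methylation, basement membrane and Hippo genes. Alternatives changed the normalisation, floor, filter, arrays in the fit, reading of probe sets, replicate 1, replicate block and each replicate left out.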

Additional observations from a re-analysis of the deposited data

Results flagged for a closer look

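In 12 of 182 groups of 4 or 5 arrays examined for the named genes, a sample stood apart from the rest of its group by Dixon's criterion, which chance meets in about 1 in 20 groups. Values are log2 signals.

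Among genes lower in CL6G52, Ddit3 had 2.62 in CL6G52 replicate 2 against 4.88 to 5.07 in the others, and Cyba had 2.78 in CL6G52 replicate 3 against 0.36 to 0.54, all of them under the floor for Cyba. Gbe1 had 4.07 in CL6G52 replicate 3 (others 4.25 to 4.29), Shmt2 had 8.27 in CL6G52 replicate 3 (others 8.44 to 8.46), and Psph had 8.41 in CL6G52 replicate 4 (others 8.47 to 8.48). Atf5 had 7.90 in CL6G36 replicate 1 against 8.45 to 8.50.

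Among genes higher in CL6G52, Frmd4a had 6.69 in CL6G52 replicate 2 (others 6.99 to 7.03), Tpm1 had 9.01 in CL6G52 replicate 2 (others 9.30 to 9.31), Cbr3 had 4.79 in CL6G52 replicate 4 (others 5.36 to 5.45), and Cnn1 had 3.83 in CL6G52 replicate 4 (others 4.73 to 4.89). Aplnr had 3.60 in CL6G52 replicate 3 (others 3.97 to 4.00). Tapbp had 6.55 in CL6G36 replicate 3 against 6.13 to 6.22.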

How the results depend on the processing

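The adjusted p alone gave 2624 genes (1160 higher, 1464 lower), and the deposited scaling 140 higher and 98 lower calls, with 173 of the 241 calls kept and none reversed. Raising dim signals to the floor gave 138 calls (48 higher, 90 lower), and log2(signal + 16) gave 96 (28 higher, 68 lower). The remaining alternatives left the count of calls between 169 and 295. Of the 241 calls, 2 did not keep their direction when dim signals were raised to the floor. Among those still tested, 2 did not keep it with a filter of at least 15 arrays above the floor. With no filter 1 call did not keep its direction, and 1 with a filter on the 9 arrays. Leaving out each replicate gave 225 to 259 calls, 72 to 96 higher and 151 to 175 lower. Replicate numbers did not pair the samples (correlations of same-numbered deviations -0.11 to 0.03 on MOE430A and -0.02 to 0.00 on MOE430B); with the replicate block 238 genes were called.

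Of the named genes 19 no longer passed with the deposited scaling and 4 with replicate 1 included. Aplnr had a difference of 0 (limma adjusted p = 1) once raised to the floor, and Fst, between -0.03 and 0.16 with a replicate left out, turned to -0.030 without CL6G36 replicate 5 (limma adjusted p = 0.891); the cause was not tested. Cnn1 (0.14, limma adjusted p = 0.224) no longer passed when raised to the floor, nor Bhlhe40 (limma adjusted p = 0.466) in the fit over all 30 arrays, nor Nr1d2 (limma adjusted p = 0.184) as the mean of its probe sets. Of the 241 calls, 101 had a single group mean under the floor and 21 had both, which limits their folds.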

Other observations

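Clock genes and host genes of small nucleolar RNAs (snoRNAs), both lists put together after the values were seen, held several of the clearest differences. Of 19 tested clock genes 11 passed lower in CL6G52, beside 11.1% of all genes, and Csnk1e alone passed higher (0.25). Of the 19, 4 were called lower, and the median was -0.63. With the deposited scaling 5 passed lower. Dbp, a clock output factor, read 7.49, 7.36, 7.72, 7.70 and 7.71 in CL6G36 and 6.05, 6.15, 6.43 and 6.16 in CL6G52 (-1.40 ± 0.11, limma adjusted p = 3e-09). Ciart, a repressor of the clock, differed by -1.04 ± 0.10 (SE, limma adjusted p = 1.8e-07), Bhlhe40 by -0.85 ± 0.10 (SE, limma adjusted p = 1.79e-06) and Nr1d2 by -0.77 ± 0.13 (SE, limma adjusted p = 0.000116). The other calls were Per2 (-1.67) and Cry1 (-1.01), while the activator gene Arntl differed by 0.05 and did not pass. CL6G45 and CL6G52 replicate 1 were at 7.69 and 7.73 for Dbp, near CL6G36. The time of harvest is not given in the labels.

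Of 15 snoRNA host genes 6 passed lower and 2 higher, beside 11.1% and 8.8% of all genes, with a median of -0.29. Snhg12 read 9.19, 8.90, 9.0, 9.30 and 9.12 in CL6G36 and 7.61, 7.62, 7.52 and 7.33 in CL6G52 (-1.58 ± 0.08, limma adjusted p = 4.91e-12). Gas5 differed by -1.12 ± 0.06 (SE, limma adjusted p = 8.89e-12), Snhg5 by -1.04 ± 0.09 (SE, limma adjusted p = 1.23e-08) and Snhg1 by -0.98 ± 0.06 (SE, limma adjusted p = 4.01e-11). Zfas1 was also called lower (-1.36) and Snhg3 higher (1.01). Of the other probe sets, those of Gas5 gave -1.15 (passing), 0.44 and 0.42 (not passing), and those of Snhg1 gave -1.17 and -0.75 (passing), 0.32 and 0.62 (not passing). Over all probe sets the means were -0.35 for Gas5 and -0.39 for Snhg1, both of which passed (limma adjusted p = 0.0165 and 0.00311), and Snhg5 on MOE430B gave -0.16. CL6G52 replicate 1 (9.10) and CL6G45 (8.96) lay with CL6G36 for Snhg12, and P19CL6 (7.63) with CL6G52.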
